A study of Mus musculus with 2 samples.

Results

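The cytosolic ribosomal protein genes were taken as all non-control probes whose gene name on the array is Rpl or Rps followed by a number, with an optional a, x, y or l, or Rplp0 to Rplp2. The rule found 80 of the 37074 gene names on the array, 49 of the large subunit (Rpl and Rplp) and 31 of the small subunit (Rps), on 174 of 56605 probes (0.307%). It used no measured value. By its letters it leaves out Rpsa, Rps3a1, Rpl36al, Rpl7l1, Rpl22l1, Fau and Gnb2l1, among others, which are given as near members further on, and it takes in 5 paralogs that are made from separate genes: Rpl3l, Rpl10l, Rpl39l, Rps27l and Rps4l. All 80 names are current symbols of the RefSeq table of GRCm38.p6, where 79 are protein coding and Rps4l is not.

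A ribosome reads messenger RNA with its small subunit and joins amino acids in its large subunit, and each subunit is a body of ribosomal RNA dressed with many different small, basic proteins. Nearly all of these proteins are present once in each ribosome, so cells keep their production in step, and their messenger RNAs are among the most abundant of almost every cell type. Many of these messages begin with a run of pyrimidines, the terminal oligopyrimidine tract, through which growth signals control their translation. In neurons they are made in the cell body and also found in dendrites and axons.

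The data were 2 Agilent mouse arrays hybridized with Cy3-labelled RNA of the olfactory bulb, where axons from the nose end on the first relay neurons of smell. The control array holds RNA of 1 mouse kept under standard odor perception conditions, and the other holds RNA of 1 mouse kept under odor enriched conditions, the only treatment named. No label gives the strain, genotype, sex or age, the odors used or how long the enrichment lasted. The labels call the tissue neurons of the bulb but name no sorting step, so whole tissue is assumed. Each condition has a single array, so no difference between conditions could be tested, and the precision is limited by having 1 array for each.

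A level here is the log2 signal of a probe minus the 75th percentile of its array's probes, and a difference is the odor-enriched level minus the control level, so that a difference of 1 is 2-fold. A gene's value is the mean over its probes that stood well above the local background on both arrays. Of all 62976 spots on each array, 59305 were not controls, and 73.7% of these were well above background on the control and 67.6% on the odor-enriched array. All 6 general neuron markers were measured on both arrays, with a summed level of 4.62 on the control and 4.39 on the odor-enriched array, and so were all 5 markers of granule and periglomerular cells (3.22 and 3.01). Other cell types differed more. The summed level of 5 olfactory sensory neuron markers, all measured, was 8.89 and 6.75, with a median difference of -1.58. That of 5 T and NK cell markers, all measured, was -0.11 and 3.95, with a median difference of 4.16, and that of 4 red cell markers was 9.17 and 10.26, with a median of 1.02. Median differences were -1.59 for 5 ensheathing glia markers, -0.91 for 5 astrocyte markers and 1.71 for 5 endothelial markers. Those of 5 mitral and tufted cell, 5 oligodendrocyte and 5 microglia markers were -0.36, 0.41 and 0.28. The part of these cell types in the differences described here was not tested. In RNA of whole tissue, fewer cells of a type and less RNA per cell cannot be told apart.

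Most ribosomal protein genes carry more than 1 probe, and the 3 probes of Rps2, the gene with the highest difference, are shown here because 1 of them differs in its letters from the others. The sequences are those of the array design, 5′ to 3′, with coordinates on mm9. Capitals mark an unbroken repeat of A and G. Probes without it are in lower case throughout, and where 30 bases are shown they are a stretch of the 60-base probe.
Rps2 repeat probe, chr17:24858999-24859058, plus strand: tttgtataaatAGAGAGAGggtatatacgg
Rps2 probe printed 10 times, chr17:24857583-24857642, plus strand: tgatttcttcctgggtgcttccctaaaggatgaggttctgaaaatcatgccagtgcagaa
Rps2 remaining probe, chr17:42864841-42864900, plus strand: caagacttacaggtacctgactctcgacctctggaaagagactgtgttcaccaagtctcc
The remaining Rps2 probe is placed at another site of the same chromosome than the other probes of Rps2. No mm9 annotation was used here, so exons and UTRs are not assigned to these positions.

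Of the 80 genes, 77 were measured on both arrays, 46 of the large and 31 of the small subunit, through 167 of the 174 probes. The 3 that were not are paralogs known mainly from other tissues. Rpl3l, the form of striated muscle, and Rpl10l, the form of the testis, were not well above background on either array. Rpl39l, another testis form, was well above background on the control array only, at a level of -4.82, which is under the lowest level that counted as well above background on the odor-enriched array (-4.66), so no fold is given. The single probes missing for Rps27a, Rps29, Rpl11 and Rps19 left these genes measured through their other probes.

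The measured genes were bright. The median level of the 77 genes was 6.45 on the control array (from -3.03 to 8.24) and 6.35 on the odor-enriched array (from -3.10 to 8.60), and 76 of the 77 stood above the 75th percentile of both arrays. The exception was Rpl37, a protein of the large subunit, whose only probe read -3.03 on the control and -3.10 on the odor-enriched array. Ribosomal protein probes made up 0.307% of the probes but held 8.57% of the summed probe signal on the control array and 7.64% on the odor-enriched array. No spot of these probes was saturated. Because probes differ in how well they bind, the order of these levels does not rank the genes.

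**Figure D1:**
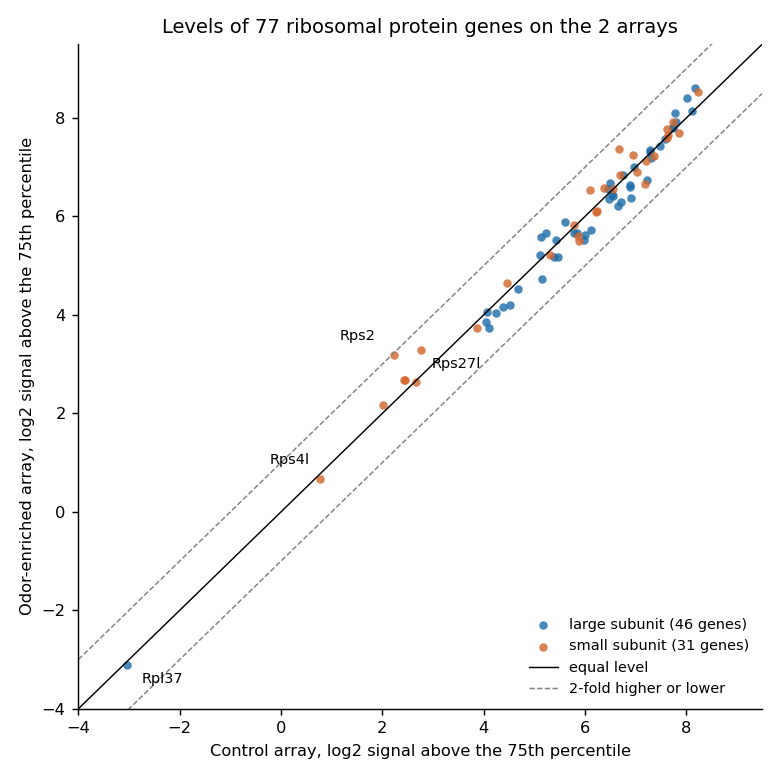
Level of each of 77 ribosomal protein genes on the control array (horizontal axis) and on the odor-enriched array (vertical axis), in log2 units above the array's 75th percentile; each point is 1 gene, blue for the large and orange for the small subunit, with a line of equal level and dashed lines at 2-fold. All 77 points lie between the dashed lines, Rps2 nearest to the upper line, and Rpl37 lies alone at the dim end.

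As a group, the ribosomal protein genes differed little between the arrays. None of the 77 differed by 2-fold or more in either direction, where 17.0% of all 23872 measured genes were (11.5% higher, 5.52% lower). Within 1.5-fold lay 75 of the 77 (97.4%), where 37.5% of all measured genes lay outside that limit, and the highest was Rps2. The differences of the 77 genes had a median of -0.03, a mean of -0.01 and an SD of 0.29, with the middle 50% between -0.19 and 0.16, and 35 genes were above 0 and 42 below. The median over all measured genes was 0.00 and their SD was 0.88.

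High signal alone did not go with so small a spread. Of the 723 genes whose mean level reached at least 5.26, the 25th percentile of the ribosomal protein genes, 14.1% were at least 2-fold different and 32.6% at least 1.5-fold different. The 665 of them that are not members had an SD of 0.75 and a median of -0.05, while the 58 members among them had an SD of 0.27 and a median of -0.02. The genes of the mitochondrial ribosome, which are built into a separate ribosome inside the organelle, spread as little as the cytosolic ones: all 77 of 77 were measured, with an SD of 0.29 and none at least 2-fold different. Their median difference was -0.23, with 17 genes above 0, the lowest at -0.92 (Mrpl44) and the highest at 0.62 (Mrpl1). The cytosolic median stood 0.20 above the mitochondrial one, but the order turned with quantile normalization, where it stood at -0.04 relative to it.

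**Figure D2:**
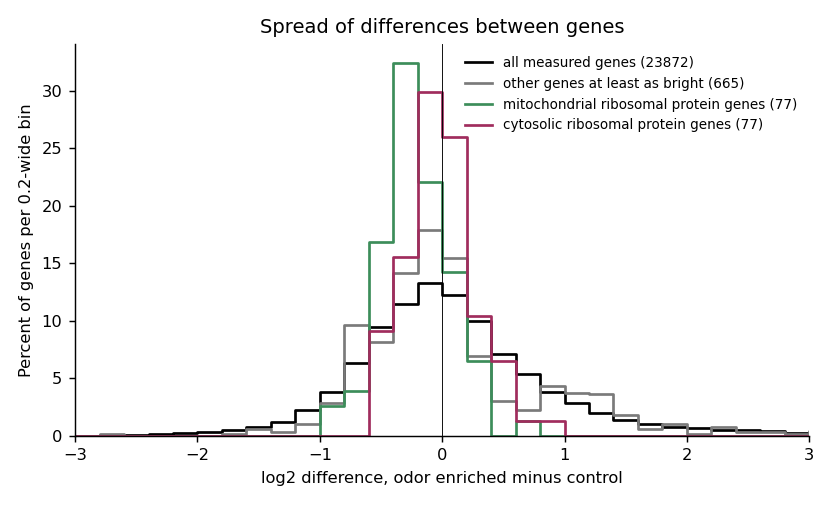
Distribution of the log2 difference, odor enriched minus control, in percent of genes per bin, for all measured genes, for other genes at least as bright as the 25th percentile of the ribosomal protein genes, and for mitochondrial and cytosolic ribosomal protein genes. The cytosolic genes lie between -0.53 and 0.96 and the mitochondrial genes between -0.92 and 0.62, both narrower than the other bright genes (SD 0.75) and than all genes (SD 0.88).

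The 46 large subunit genes had a median difference of -0.10 (mean -0.08, SD 0.26, middle 50% from -0.28 to 0.09), with 19 above 0 and 27 below. The 31 small subunit genes had a median of 0.02 (mean 0.08, SD 0.30, middle 50% from -0.12 to 0.22), with 16 above 0 and 15 below. The large subunit median thus stood at -0.11 relative to the small one, and at -0.16 by the means. This gap is smaller than the SD among the genes of either subunit, and the 2 distributions overlapped over nearly their whole range. It was -0.08 when the probes with the AG repeat were left out and -0.04 with quantile normalization.

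Within the large subunit, the highest differences belonged to Rpl41, Rpl37a, Rpl22 and Rpl38. Rpl41, a very short peptide, stood at 5.13 on the control and 5.58 on the odor-enriched array, a difference of 0.45. Its 3 probes gave 1.05, 0.27 and 0.03, and its place at the top rests on the dimmest of them, at 1.05. Rpl37a, a zinc-binding protein, stood at 8.17 and 8.60 (0.43), and its probes gave 0.35 and 0.51. Rpl22, an RNA-binding protein that cells can do without, stood at 5.22 and 5.65 (0.43), and Rpl38, known for its role in translating Hox messages in the embryo, stood at 8.00 and 8.40 (0.39). All 4 were higher on the odor-enriched array by less than 1.5-fold. The sign of Rpl41 and Rpl22 was the same in 9 ways of scaling the arrays, leaving aside centring on spike-ins. Several of these 9 only shift an array by a constant and are not separate checks.

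The lowest large subunit genes were Rpl21, Rpl28, Rpl17 and Rpl7a. Rpl21 stood at 6.90 on the control and 6.38 on the odor-enriched array (-0.53), with its 2 probes at -0.75 and -0.30. Rpl28 stood at 7.22 and 6.74 (-0.47), and its 3 probes lay between -0.52 and -0.42. Rpl17, a protein near the exit of the tunnel through which the new protein leaves, stood at 5.97 and 5.51 (-0.46), with 3 probes from -0.56 to -0.27. For these 3 genes all probes were on the same side and the sign was the same in the 9 scalings. Rpl7a stood at 6.64 and 6.22 (-0.43), but its 2 probes gave -0.95 and 0.10, and the spot of the lower one lies in a stretch of the array surface whose spots differed as a block. Leaving such patches out turned the difference of Rpl7a to 0.10.

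In the small subunit, Rps27l, the paralog of Rps27 that p53 is known to induce, stood at 2.76 on the control and 3.29 on the odor-enriched array (0.53), and its 2 probes gave 0.52 and 0.54. Its parent Rps27 stood at 7.61 and 7.77 (0.16), through probes placed on another chromosome than its annotated start. Rps26, which lies where the message leaves the ribosome, stood at 6.10 and 6.53 (0.43). Of these 3, Rps27l and Rps26 kept their sign in all 9 scalings. Rps2 had a higher gene value still, 0.96 (2.23 on the control, 3.19 on the odor-enriched array), which rests on 1 probe, described below.

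The lowest small subunit gene was Rps15, a protein of the head of the subunit, at 7.19 on the control and 6.66 on the odor-enriched array (-0.53). Rps7, known for binding the p53 regulator Mdm2, stood at 5.88 and 5.49 (-0.39). Each of these genes was measured by a single probe and stayed below 0 in the 9 scalings. Rps6, whose protein is phosphorylated by the S6 kinases when cells are stimulated to grow, stood at 5.86 and 5.60 (-0.26), with probes at -0.36 and -0.17. Rps14, a protein of the subunit's platform, stood at 7.84 and 7.68 (-0.16). The array measures the messages of these genes, not phosphorylation or protein.

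**Figure D3:**
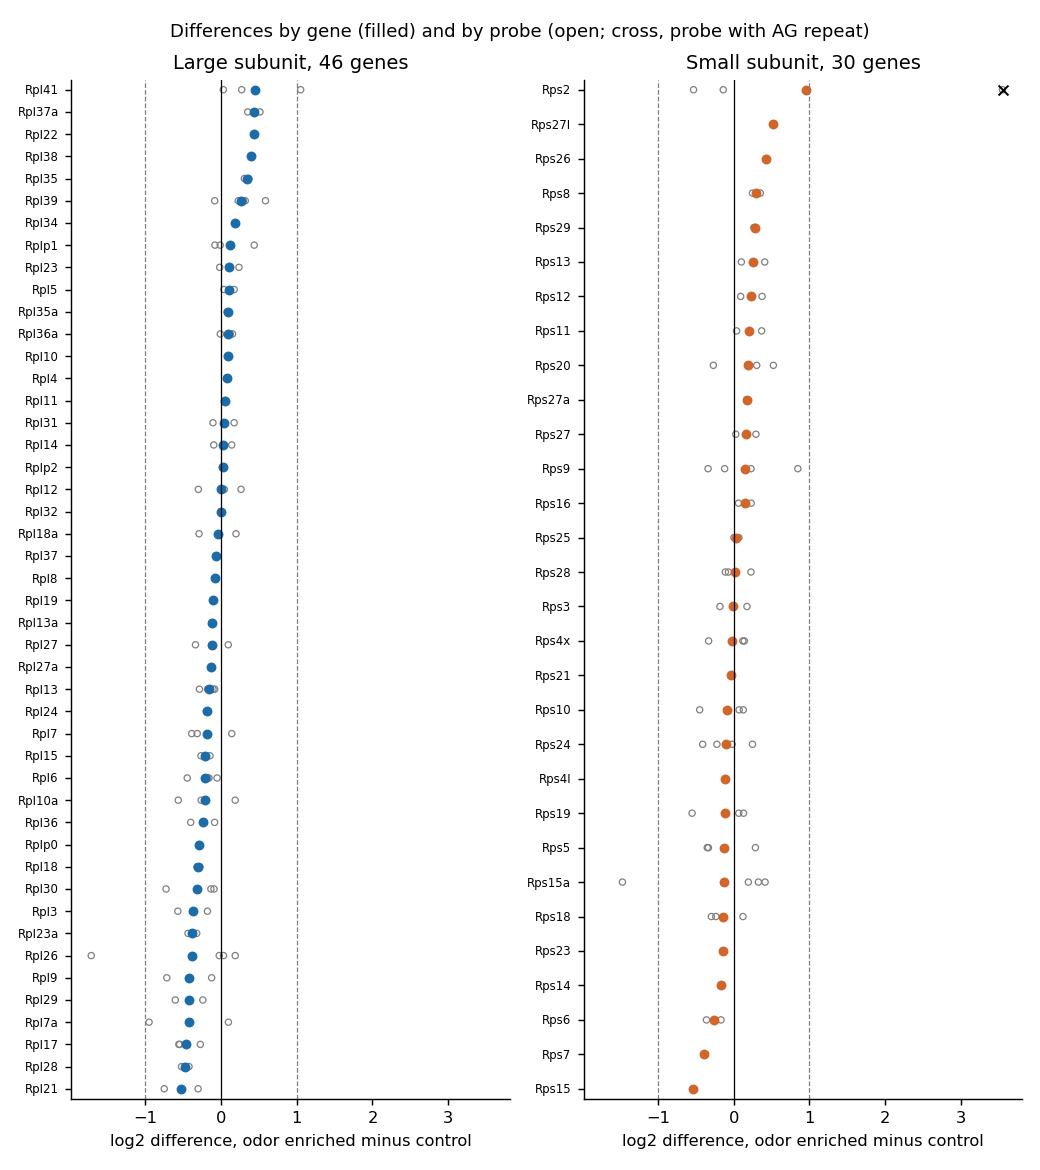
Log2 difference, odor enriched minus control, of large subunit genes (left) and small subunit genes (right), sorted; filled points are genes, open circles their single probes and a cross a probe with the AG repeat, with dashed lines at 2-fold; 46 large and 30 small subunit genes are drawn. Genes run from -0.53 to 0.45 in the large and from -0.53 to 0.96 in the small subunit, and the cross of Rps2 (3.55) lies far from the other probes of that gene.

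Grouped by role, no list stood far from 0. The stalk of the large subunit, which recruits translation factors, is built from Rplp0, Rplp1 and Rplp2 on a base that holds Rpl12. Rplp0 stood at 6.88 on the control and 6.59 on the odor-enriched array (-0.29). Rplp1 stood at 7.80 and 7.92 (0.12), with its 3 probes at -0.08, -0.01 and 0.44, and Rplp2 at 8.12 and 8.14 (0.02). Rplp0, often used as a reference gene in quantitative PCR, was the lowest of the 4 stalk genes.

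The 9 measured proteins around the exit tunnel had a median difference of 0.03 and the 13 proteins of the small subunit's head one of 0.02. Rpl5 and Rpl11, which carry the 5S RNA into the large subunit and bind Mdm2 when assembly is disturbed, stood at 5.10 and 5.21 (0.11) and at 7.74 and 7.80 (0.06). Of 19 members known as genes of Diamond-Blackfan anaemia, an inherited failure of red cell production, 10 were above 0, with a median of 0.02. Over all 23872 measured genes, 11962 were above 0. With the AG repeat probes left out, the median was -0.002 for the head proteins and -0.08 for these 19 genes. Rps19, the best known of them, stood at 7.03 and 6.91 (-0.12), with 3 probes at -0.55, 0.07 and 0.13. These values lay within the spread of the whole family.

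The paralogs could be compared with their parents only where they were measured. Rps4l stood at 0.78 and 0.67 (-0.11), and its parent Rps4x, on the X chromosome, at 2.66 and 2.64 (-0.02), a level pulled down by a dim probe at -4.35 and -4.21 beside 2 probes above 5. For the 3 unmeasured paralogs, the parents were measured: Rpl3, which lies near the catalytic centre, at 5.99 and 5.62 (-0.37), Rpl10, which joins the large subunit late, at 7.73 and 7.82 (0.09), and Rpl39, a tunnel protein, at 5.61 and 5.88 (0.27). The rule's near members behaved much like the members. All 9 names on that list had a median of 0.03 and an SD of 0.12, counting Rps27a (0.17), which is itself a member. They ranged from -0.13 for Rpl22l1 to 0.27 for Rpl7l1.

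Probes of the same gene disagreed far more than repeats of the same probe. For 64 ribosomal protein probes printed 10 times on each array, the SD of the difference between repeat spots was 0.04 (pooled, from 0.01 to 0.09 per probe). Between different probes of a gene the pooled SD was 0.50 over the 56 genes with more than 1 measured probe, against 0.63 over all 8234 such genes on the array. In 26 of the 56 genes the probes lay on both sides of 0, in 14 all were above and in 16 all below. The range between the probes of a gene was under 0.5 in 37 genes and over 1 in 7. Neither SD covers the spread between mice.

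The closest probes belonged to Rpl27a, Rpl35a and Rps29. The 2 probes of Rpl27a, a protein of the large subunit, both gave -0.13 (6.87 to 6.74 and 6.23 to 6.10). Those of Rpl35a gave 0.10 and 0.08, and the 3 probes of Rps29, a zinc-binding protein of the small subunit, gave 0.27, 0.29 and 0.29, going from between 8.06 and 8.35 on the control to between 8.34 and 8.65. The 3 measured Rps29 probes are placed on chromosome 2 of mm9, and another, placed on chromosome 12, was below background on both arrays. Probes of Rpl13 and Rpl36 are also placed on more than 1 chromosome. Both Rps27 probes are placed on chromosome 9 of mm9, while its annotated start on GRCm38.p6 lies on chromosome 3. The values of these genes are uncertain where near-identical copies exist.

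Most of the widest probe spreads came with dim probes. A limit of 2 on the mean level, chosen after the values were seen, separated 148 bright probes from 19 dim ones. The bright probes had an SD of 0.33 and the dim ones an SD of 1.08, and 130 of the bright but only 3 of the dim probes were designed on a RefSeq mRNA record. Between bright probes of a gene the pooled SD was 0.27. Only 5 ribosomal protein probes were at least 2-fold different, where 18.1% of all 36639 measured probes were, and 4 of these 5 were dim. The dim ones belonged to Rps2, Rpl41, Rpl26 and Rps15a.

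The probes behind 2 of these outliers, and a concordant probe of the same gene, are shown because they report the same gene name with opposite sign. None holds the AG repeat, so all letters are in lower case.
Rpl26 outlying probe, chr11:68720418-68720477, plus strand: caaccagggcaacacagaaaaaccctgtgt
Rpl26 concordant probe, chr11:68716730-68716789, plus strand: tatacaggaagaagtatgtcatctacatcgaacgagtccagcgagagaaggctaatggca
Rps15a outlying probe, chr7:125248322-125248381, minus strand: gtgagtcagcagaaagtatagatagcaaag
Rps15a concordant probe, chr7:125253453-125253512, minus strand: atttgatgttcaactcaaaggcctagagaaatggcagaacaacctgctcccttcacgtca
For Rpl26, a tunnel protein that also binds p53 messages, the outlying probe went from -1.24 to -2.95 (-1.72) and is designed on an Ensembl transcript, while 3 probes above 4 gave -0.02, 0.03 and 0.19. For Rps15a, a protein of the small subunit, the outlying probe is designed on a RefSeq mRNA record. It went from -1.98 to -3.45 (-1.47), while 3 probes above 5 gave 0.19, 0.33 and 0.42. The gene values of -0.38 and -0.13 therefore lie below every bright probe of these genes. In Rpl41 the dim probe, also on an Ensembl transcript, went from 1.05 to 2.10 (1.05), while the bright probes gave 0.27 and 0.03.

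The highest ribosomal protein probe was the Rps2 probe with the AG repeat. It went from -4.51 on the control to -0.96 on the odor-enriched array (3.55), while the other probes of the gene went from 5.87 to 5.74 (-0.14) and from 5.32 to 4.79 (-0.53). Rps2 lines the channel through which the message enters the small subunit. Without the repeat probe Rps2 stood at -0.33, so its sign turned, and with all such probes left out no member remained above 1.5-fold.

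The letters AGAGAGAG, chosen after these values were seen and 1 of 11 short repeats looked at, were held by 147 probes of the array (0.26%), the Rps2 probe among them. Of the 133 measured, 111 (83.5%) were at least 2-fold higher on the odor-enriched array, where 11.6% of all measured probes were, and 2 were at least 2-fold lower. Their median level went from 1.16 to 3.79, with a median difference of 2.96 and the middle 50% between 1.67 and 3.54. In 70 genes that had both kinds of probe, the median difference was 2.94 for probes with the letters and 0.03 for the others, and the probe with them was the higher in 62. Probes with the reverse complement, CTCTCTCT, had a median of -0.25 over 120 measured probes, and those with AAGAAGAAG one of 1.47 over 125. GGAGGAGGA had a median of 1.22 over 59 and TGTGTGTG one of 0.90 over 259. Of these probes, 64.4% and 42.9% were at least 2-fold higher. ACACACAC had a median of -0.07, and CCCCC and GGGGG had 0.08 each. The 2 ribosomal protein probes with AAGAAGAAG gave -0.12 and 0.14. Longer and shorter forms of the AG repeat, which overlap AGAGAGAG, had medians from 2.10 to 2.92. The cause was not tested, and these values do not tell a difference in RNA from one in how such probes read.

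**Figure D4:**
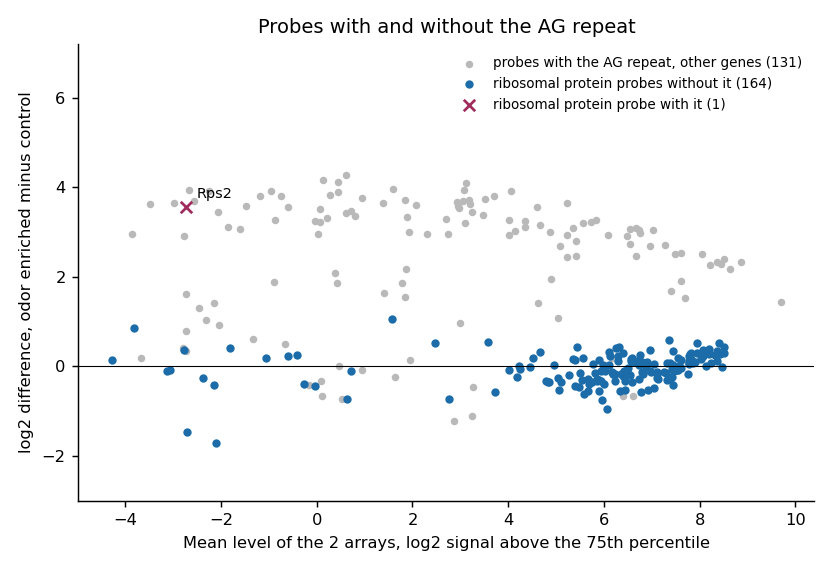
Log2 difference, odor enriched minus control, against the mean level of the 2 arrays for single probes: grey, probes of other genes with the letters AGAGAGAG; blue, ribosomal protein probes without them; cross, the Rps2 probe with them. The cross lies among the grey points, and the median of all measured probes with the letters is 2.96, while all blue points at levels above 2 lie between -0.95 and 0.59.

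Mean level, GC percentage and position in the transcript were also set against the difference of single probes. Across the 147 bright ribosomal protein probes without the repeat, Spearman's rho with the difference was 0.41 for the mean level, -0.28 for the GC percentage and -0.02 for the position in the transcript. Across all 6586 bright probes without the repeat these were 0.08, -0.10 and -0.11. Probes of 1 array share their hybridization and are not independent, so these are descriptions. By mean level, the 26 brightest ribosomal protein genes had a median difference of 0.03, the 25 in the middle one of -0.13 and the 26 dimmest one of -0.09.

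A terminal pyrimidine tract, which the rule did not use, could be read for part of the family. Of 71 RefSeq promoter entries (GRCm38.p6) for 59 members, 13 (18.3%), of 13 genes, had a C at the annotated start followed by at least 4 pyrimidines, read on the gene's strand only, where 2.51% of all 32851 promoters did. Shown here are 5 of the 13, chosen to hold members described above, as 30 bases on GRCm38.p6 with 15 before the start and the pyrimidine run from the start in capitals.
Rpl28, chr7:4792950-4792979, plus strand: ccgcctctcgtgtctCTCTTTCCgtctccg
Rpl38, chr11:114668565-114668594, plus strand: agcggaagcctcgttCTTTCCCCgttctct
Rplp2, chr7:141447636-141447665, plus strand: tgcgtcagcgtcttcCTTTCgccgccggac
Rps6, chr4:86857353-86857382, minus strand: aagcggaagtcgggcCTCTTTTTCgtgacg
Rps27, chr3:90213634-90213663, minus strand: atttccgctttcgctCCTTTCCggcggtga
An annotated start can lie some bases from the one a cell uses, so a missing run says only that these letters are not at that position. The 13 genes with the run had a median difference of -0.03 (SD 0.24), and the 43 other measured genes with a promoter entry one of 0.00 (SD 0.29). Among the 5 shown, Rpl28 (-0.47) and Rps6 (-0.26) stood below 0 and Rpl38 (0.39) and Rps27 (0.16) above, with Rplp2 at 0.02.

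Other genes of protein synthesis give the setting. Elongation factors, all 8 measured, had a median of -0.16, from Eef1a2, the form of neurons and muscle (2.02 on the control, 1.20 on the odor-enriched array, -0.82), to Eef1b2, a subunit of the exchange factor (5.42 and 5.58, 0.17). Of 38 initiation genes, with a median of -0.13 and an SD of 0.42, none was at least 2-fold higher and 1 was lower by as much. That gene was Eif4ebp1, which restrains the cap-binding protein (1.69 and 0.66, -1.03), and the highest was the helicase gene Eif4a2 (0.83 and 1.76, 0.93). Of 34 genes of ribosome production and its signalling (median 0.01, SD 0.47), 1 was at least 2-fold higher, the S6 kinase gene Rps6kb1 (-1.15 and 0.09, 1.24), and 1 lower, the assembly factor gene Bop1 (1.87 and 0.78, -1.08). The SDs of these lists were larger than that of the ribosomal protein genes.

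The family can also be set beside genes in common use as references. The 14 reference genes measured had a median difference of 0.16 and an SD of 0.69, against 0.29 for the 77 ribosomal protein genes. The reference genes were also dimmer, at a median level of 2.38 on the control array against 6.45. They ran from Sdha, a subunit of succinate dehydrogenase (0.34 and -0.26, -0.60), to B2m, the light chain of class I antigen-presenting molecules (2.28 and 4.47, 2.19), the only one at least 2-fold different. The SD of 0.69 rests in part on B2m. Actb stood at 8.14 and 8.86 (0.72) and Gapdh at 5.93 and 5.47 (-0.46).

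How the arrays were scaled set the sign of the family's median. Where an array was shifted by a constant, the median moved with that of all genes, but with quantile normalization it moved farther, and with normexp the medians moved in opposite directions. Relative to the 75th percentile it was -0.03 and that of all genes 0.00. Centring each array on its median gave -0.20 and -0.17, and the 75th percentile over detected probes gave 0.05 and 0.08. Quantile normalization gave -0.20 and -0.06, cyclic loess 0.10 and 0.06, normexp background correction -0.08 and 0.09, and the authors' series matrix values 0.30 and 0.33. Centring on 10 E1A spike-in probes (350 spots, mean log2 signal 7.53 on the control and 9.14 on the odor-enriched array, 80% of them well above background) gave -1.94 and -1.91, and put 76 of the 77 genes at least 2-fold lower. The same centring put 20745 of all 23872 measured genes at least 2-fold lower. Apart from the spike-in centring, 11 genes stayed above 0 in all 9 scalings, 10 stayed below 0 in all, and 56 took both signs. Several of these scalings only shift an array by a constant, so a kept sign partly restates the size of the difference. The 11 include Rps2, which stood at -0.33 without its repeat probe.

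Taking the ribosomal protein median itself as the zero point moved all genes up by 0.03 on this scale. The number of genes at least 2-fold higher then went from 2747 to 2866 and the number lower from 1317 to 1221, so that the higher ones made up 70.1% of the changed genes in place of 67.6%. The same share was 50.9% with median centring, 74.3% with the 75th percentile over detected probes, 61.9% with quantile normalization, 71.6% with cyclic loess, 88.5% with the series matrix values and 1.48% with the spike-ins. Leaving out any 1 of the 77 genes kept the family's median between -0.04 and -0.03. Dropping 1 of 77 values can hardly move a median, so this does not show how stable the zero point is. The median of all genes minus that of the family was 0.03 wherever an array was shifted by a constant, 0.14 with quantile normalization, 0.17 with normexp and -0.03 with cyclic loess.

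**Figure D5:**
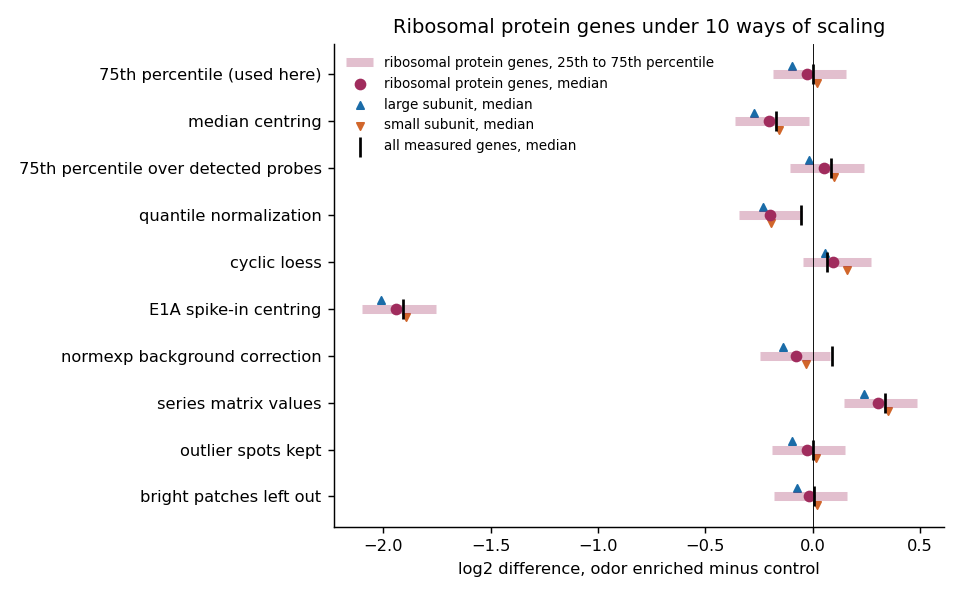
Median log2 difference, odor enriched minus control, of all 77 ribosomal protein genes (circles, with bars from the 25th to the 75th percentile), of the large and the small subunit (triangles) and of all measured genes (vertical marks) under 10 ways of scaling or filtering the arrays. The family's median runs from -0.20 to 0.30 apart from the spike-in centring at -1.94. It moves apart from the median of all genes with quantile normalization and normexp. The large subunit lies below the small in each, an order that shifting an array by a constant cannot change.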

How the data were processed

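Per the labels' protocols, total RNA was labelled with Cy3 from an oligo dT primer with an Agilent kit. Per the file headers, spots were read with version 11.5.1.1 of Agilent Feature Extraction, and each deposited intensity is background-subtracted and detrended, with no normalization across arrays. The authors' series matrix holds log2 values equal to the log2 processed signal minus a constant per array (14.46 control, 13.82 odor enriched; within 0.01 for 91.7% and 100% of probes), of unstated origin; column medians were -9.48 and -8.98. Direction and scale follow from this match, and the centring stays unknown.

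Here, outlier-flagged spots were dropped (17 and 39 spots of these probes), log2 signals averaged per probe, and each array's 75th percentile (7.97 and 7.66) subtracted. Probes had to be well above background on both arrays, and a gene is the mean of its probes. No mm9 annotation was used. Alternatives were other scalings, filters and thresholds, normexp with an offset of 50, and patches left out. The members and lists were chosen with earlier results of these data known, and the repeat letters and the bright limit after the values were seen. Full values went to the 4 highest and 4 lowest genes of each subunit, the 5 most and 3 least spread multi-probe genes, the stalk, 4 preset genes, all paralogs with parents, and the extremes of each translation and reference list; a few members are counted but not reported by name. The steps were tested on simulated data. Software was R 4.3.3 (limma 3.58.1) and Python 3.11.15 (matplotlib 3.10.9, scipy 1.17.1, pandas 2.3.3, numpy 2.4.6).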

Additional observations from a re-analysis of the deposited data

How the results depend on the processing

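No paired analysis was possible because each group holds 1 array, and for the same reason no replicate could be left out. The family's median difference, -0.03, became -0.20 with median centring, 0.053 with the 75th percentile over detected probes, -0.20 with quantile normalization, 0.10 with cyclic loess, -1.94 with spike-in centring, -0.080 with normexp, 0.30 with the series matrix values, 0.069 with each gene's brightest probe and -0.072 without the AG repeat probes, the last chosen after seeing the data. The count of members at least 2-fold higher, 0, became 1 with the 75th percentile over detected probes, 1 with cyclic loess, 1 with the brightest probe, 2 with the series matrix values and 2 at a 1.5-fold threshold. Among all measured genes, 3097 were as high with the 75th percentile over detected probes, 2796 with cyclic loess and 4466 with the series matrix values. At the 1.5-fold threshold 5072 of 23872 were. No such count is given for the brightest probe. The count at least 2-fold lower, 0, became 76 with spike-in centring, where 20745 of all 23872 measured genes were as low. The large minus small subunit gap, -0.11, became -0.037 with quantile normalization and kept its sign in all 17 settings run. Settings that only shift an array by a constant cannot change this gap, so they are no check of its sign. The pooled SD between probes of a gene, 0.50, became 0.35 with normexp, 0.35 without the AG repeat probes and 0.27 with bright probes. In the other settings run, 8 moved the median by less than the SD between repeat spots, 14 left the higher count and 18 the lower count at 0. Dim probes, near background, limit what can be said of single genes.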
